A study of Mus musculus with 6 samples.

Results

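Nuclear genes encode most of the protein subunits of the mitochondrial respiratory chain. Their transcripts were compared here between brain cells of mice with experimental autoimmune encephalomyelitis (EAE) and of ovalbumin controls (OVA). Members were all protein-coding genes whose mouse symbol begins with Nduf followed by a, b, c, s or v and a digit, is Sdha, Sdhb, Sdhc or Sdhd, or begins with Uqcr, with Cox and a digit from 4 to 8, or with Atp5. The rule found 85 gene identifiers. A pair of them, Cox8c and an additional identifier of Atp5o, held 0 in every sample and was dropped, which left 83 members of 55298 identifiers in the table. They comprise 35 genes of complex I, 4 of complex II, 8 of complex III, 19 of complex IV and 17 of complex V. All but Cox7b2, which had a mean of 0.59, reached the minimum mean of 3 required for a test, so 82 members were tested.

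The cells came from the brains of mice of the strain labelled c56Bl/6j and were captured without culture on magnetic beads carrying O4, an antibody against a surface sulfatide of oligodendrocytes and their late precursors. Mice of the EAE group had received the peptide MOG 35-55 of myelin oligodendrocyte glycoprotein, an immunisation that leads T cells and myeloid cells to enter the nervous system, and the controls had received ovalbumin. Each of the 3 EAE samples pooled 2 mice, whereas OVA replicates 1 and 3 were single mice and OVA replicate 2 pooled 2 mice. The values are regularised logarithms (rlog) of scaled read counts on a log2 scale, in which a difference of 1 is a 2-fold difference and small counts are drawn towards the mean of the gene. Their depth is unknown, because no counts were used here. A value in such a mixed preparation cannot tell fewer cells of a type from less RNA per cell.

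The respiratory chain moves electrons from NADH and succinate to oxygen and uses the energy to pump protons across the inner mitochondrial membrane. Complex I oxidises NADH, complex II oxidises succinate, complex III passes electrons from ubiquinol to cytochrome c, complex IV passes them to oxygen, and complex V, the ATP synthase, makes ATP as protons flow back. Complexes I, III, IV and V combine subunits from nuclear and from mitochondrial genes, and the mitochondrial genes were not analysed here. Oligodendrocytes use this chain for their energy-demanding work of making myelin, and mature cells also rely on glycolysis. Several complex IV subunits exist as a widespread isoform and a second isoform made mainly in heart and skeletal muscle, lung or testis.

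Many promoters of these genes carry binding elements of nuclear respiratory factor 1 (NRF1), of ETS-family factors such as GABP, and of YY1. In a window from 250 bases before to 50 bases after the start, RefSeq promoters (GRCm38.p6) were at hand for 66 members, 65 of them tested, and for 11885 tested protein-coding genes. The NRF1 core CGCANGCG occurred on either strand in 25 of the 65 members (38.5%) and in 17.3% of the 11885 genes. The ETS core CCGGAAG occurred in 16 members (24.6%, against 17.5%), and the YY1 core AANATGGCG in 10 (15.4%, against 5.12%). Such short cores leave out the flanking letters of the full elements. Matches of different cores overlapped in 0 places in the members' windows. Upstream stretches of 250 bases are shown with matches in capitals: those of Cox6a1, Cox8a and Ndufb7, the 3 members with the smallest p, and that of Cox8b, the muscle isoform of Cox8a. They lie at chr5:115348959-115349208 (minus strand) for Cox6a1, chr19:7217617-7217866 (minus strand) for Cox8a, chr8:83566508-83566757 (plus strand) for Ndufb7 and chr7:140900447-140900696 (minus strand) for Cox8b, and each is written 5′ to 3′ on the strand of its gene.
Cox6a1: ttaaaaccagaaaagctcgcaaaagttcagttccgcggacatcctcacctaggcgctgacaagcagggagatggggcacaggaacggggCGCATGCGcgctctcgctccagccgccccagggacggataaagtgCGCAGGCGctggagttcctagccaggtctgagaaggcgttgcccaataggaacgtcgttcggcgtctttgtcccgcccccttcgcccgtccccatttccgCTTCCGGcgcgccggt
Cox8a: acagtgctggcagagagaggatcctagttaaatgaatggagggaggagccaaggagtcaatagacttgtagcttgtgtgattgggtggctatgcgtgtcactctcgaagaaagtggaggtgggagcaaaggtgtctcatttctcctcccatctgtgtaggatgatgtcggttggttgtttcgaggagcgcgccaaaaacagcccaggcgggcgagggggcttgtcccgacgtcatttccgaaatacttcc
Ndufb7: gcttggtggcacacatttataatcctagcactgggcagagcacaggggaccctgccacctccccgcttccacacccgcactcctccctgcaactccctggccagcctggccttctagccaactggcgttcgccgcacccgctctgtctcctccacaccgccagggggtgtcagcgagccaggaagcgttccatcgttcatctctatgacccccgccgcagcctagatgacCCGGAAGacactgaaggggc
Cox8b: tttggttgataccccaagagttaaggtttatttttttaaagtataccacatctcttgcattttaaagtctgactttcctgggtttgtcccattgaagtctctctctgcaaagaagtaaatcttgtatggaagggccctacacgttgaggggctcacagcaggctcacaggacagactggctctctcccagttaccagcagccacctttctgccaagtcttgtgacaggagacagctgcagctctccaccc
The Cox6a1 stretch holds 2 NRF1 matches and 1 ETS match, and the Ndufb7 stretch holds 1 ETS match. Cox8a has 0 matches upstream and 2 ETS matches that reach past the start. Cox8b has 0 matches of any of the 3 cores. The median EAE minus OVA difference was 0.043 in members with the NRF1 core and 0.084 in those without it, and 0.122 with the ETS core and 0.054 without it. For the YY1 core these medians were both 0.058. A match is a run of letters, and binding was not measured.

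All 9 markers of mature oligodendrocytes were present, at a summed level of 20.22 to 20.37 in EAE and 19.85 to 20.28 in OVA. All 9 were above 0 in their EAE minus OVA difference, with a median of 0.227, and 0 passed the test. Markers of other brain and blood cells were present too. Monocyte and macrophage markers were above 0 in 8 of 8 genes, with 4 past the test, and of 9 astrocyte markers 5 passed it as lower in EAE and 1, Gfap, as higher. T cell markers were above 0 in 7 of 7 genes, with 5 past the test. Microglia markers were below 0 in 7 of 7, with 2 past it. OVA replicate 3 stood apart in 7 of 7 neutrophil markers, at a median 3.79 above each gene's mean. Endothelial markers were below 0 in 9 of 9 genes, with a median of -0.556 and 0 past the test. They were highest in OVA replicate 3 in 9 of 9 genes, and ependymal markers were lowest in OVA replicate 1 in 6 of 6. Xist, which silences an X chromosome in female cells, stood at 13.51, 13.56 and 14.16 in the EAE pools and at 7.39, 7.63 and 7.62 in OVA, while the Y-linked Ddx3y stood at 10.18, 10.17 and 9.44 against 11.46, 11.38 and 11.29. Sex-linked transcripts thus separate the groups as the treatment does, and the labels do not give sex, so the 2 cannot be told apart.

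Respiratory chain subunit transcripts were well expressed in both groups, and 0 passed the test. Of the 82 tested members, 69 had a mean rlog value of 9 to 14. limma, a linear model with the spread shared across genes, called 0 members higher and 0 lower in EAE at a Benjamini-Hochberg adjusted p under 0.05, where 1.72% of all 18161 tested genes were called higher and 0.666% lower. The smallest adjusted p of a member was 0.115, for Cox8a. At an unadjusted limma p under 0.05 there were 8 members, 9.76%, beside 16.3% of all tested genes. Weights for sample quality, which gave OVA replicate 2 a weight of 8.85 against 0.275 and 0.222 for the other OVA samples, changed the counts to 13 higher and 3 lower members, in a fit that called 15.7% of all genes higher and 12.3% lower. Without OVA replicate 3, Cox8a and Ndufb7 were called higher, at limma adjusted p of 0.0439 and 0.0419, in a fit that called 4.68% of all genes higher and 1.91% lower.

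The differences were small. EAE minus OVA ran from -0.285 (Cox4i2) to 0.475 (Cox8a), and the median absolute difference was 0.086. The 95% limma interval lay between -1 and 1 for all 82 members, beside 95.4% of all tested genes, and between -0.5 and 0.5 for 69 of them (84.1%, beside 74.6% of all tested genes). The difference was above 0 in 61 members and below 0 in 21, or 74.4% above 0 beside 49.3% of all tested genes. Their median was 0.058, beside -0.002 over all tested genes. This lean rested on OVA replicate 1: without it the median was -0.032, with 33 of 82 members above 0.

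**Figure D1:**
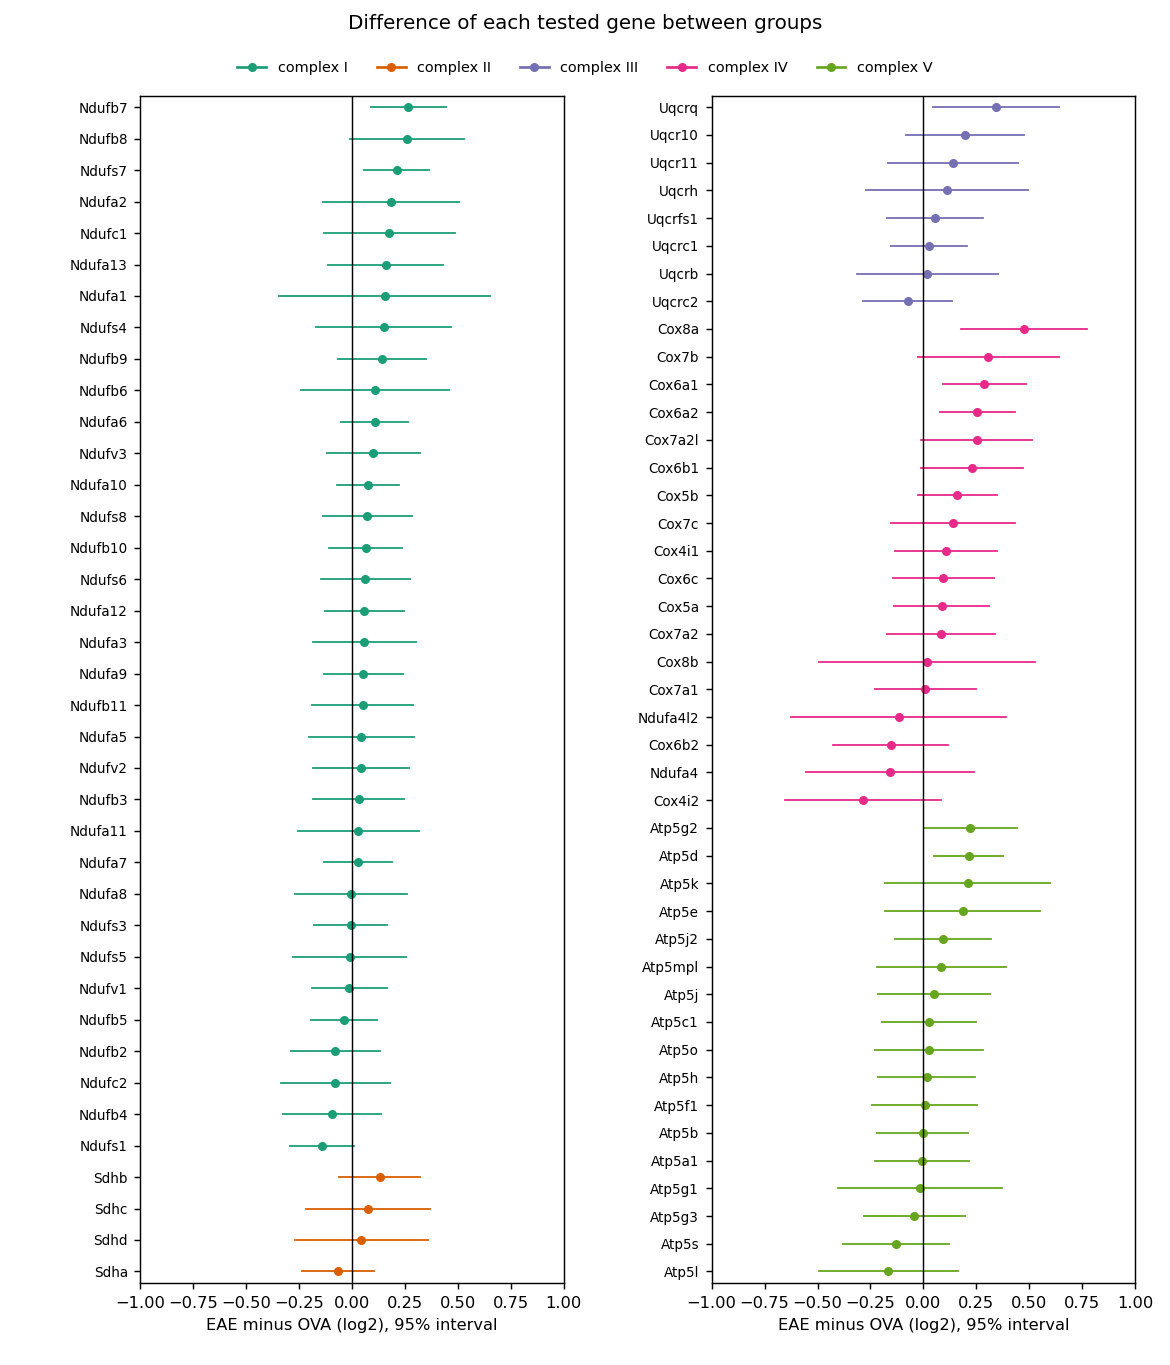
EAE minus OVA difference of the tested members, 1 left out, on the log2 scale (points), with its 95% limma interval (lines), coloured by complex and sorted within each complex. The points run from -0.285 for Cox4i2 to 0.475 for Cox8a, and every interval shown lies within 1 of 0.

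The OVA samples lay apart from each other in most members. OVA replicate 1 was the lowest of the 6 samples in 61 of 82 members (74.4%, beside 24.2% of all tested genes). In 52 of the 82 members it lay more than 0.1 under every other sample. The same held for 2154 of all 18161 tested genes and for 318 of the 894 tested protein-coding genes with a transcript under 1 kb. OVA replicate 3 was the highest in 43 members (52.4%, beside 25.5%). As deviations from each gene's mean, the member medians were 0.050, 0.034 and 0.018 in the EAE pools and -0.212, 0.010 and 0.098 in OVA replicates 1 to 3. In 42 members (51.2%, beside 30.9% of all tested genes) all 3 EAE values lay inside the OVA range. The range over 3 samples was smaller in EAE than in OVA for 70 members (85.4%, beside 75.9%), with median ranges of 0.113 and 0.333. Every EAE value averages 2 mice and both outlying OVA samples are single mice, so that pooling and group cannot be told apart in these ranges. The choroid plexus markers had the same lowest and highest samples: 5 of 5 were lowest in OVA replicate 1 and 5 of 5 were highest in OVA replicate 3. All EAE values of the 5 lay inside the OVA range. Their median deviations were -0.303, 0.161 and -0.014 in the EAE pools and -0.806, 0.231 and 0.785 in OVA replicates 1 to 3. The samples in between came in another order than in the member medians, which lay close together there, at 0.010 to 0.050. Choroid plexus markers had a summed level of 17.43 to 17.85 in EAE and 16.66 to 18.48 in OVA. The part of choroid plexus transcripts in the values of the subunit genes was not tested.

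**Figure D2:**
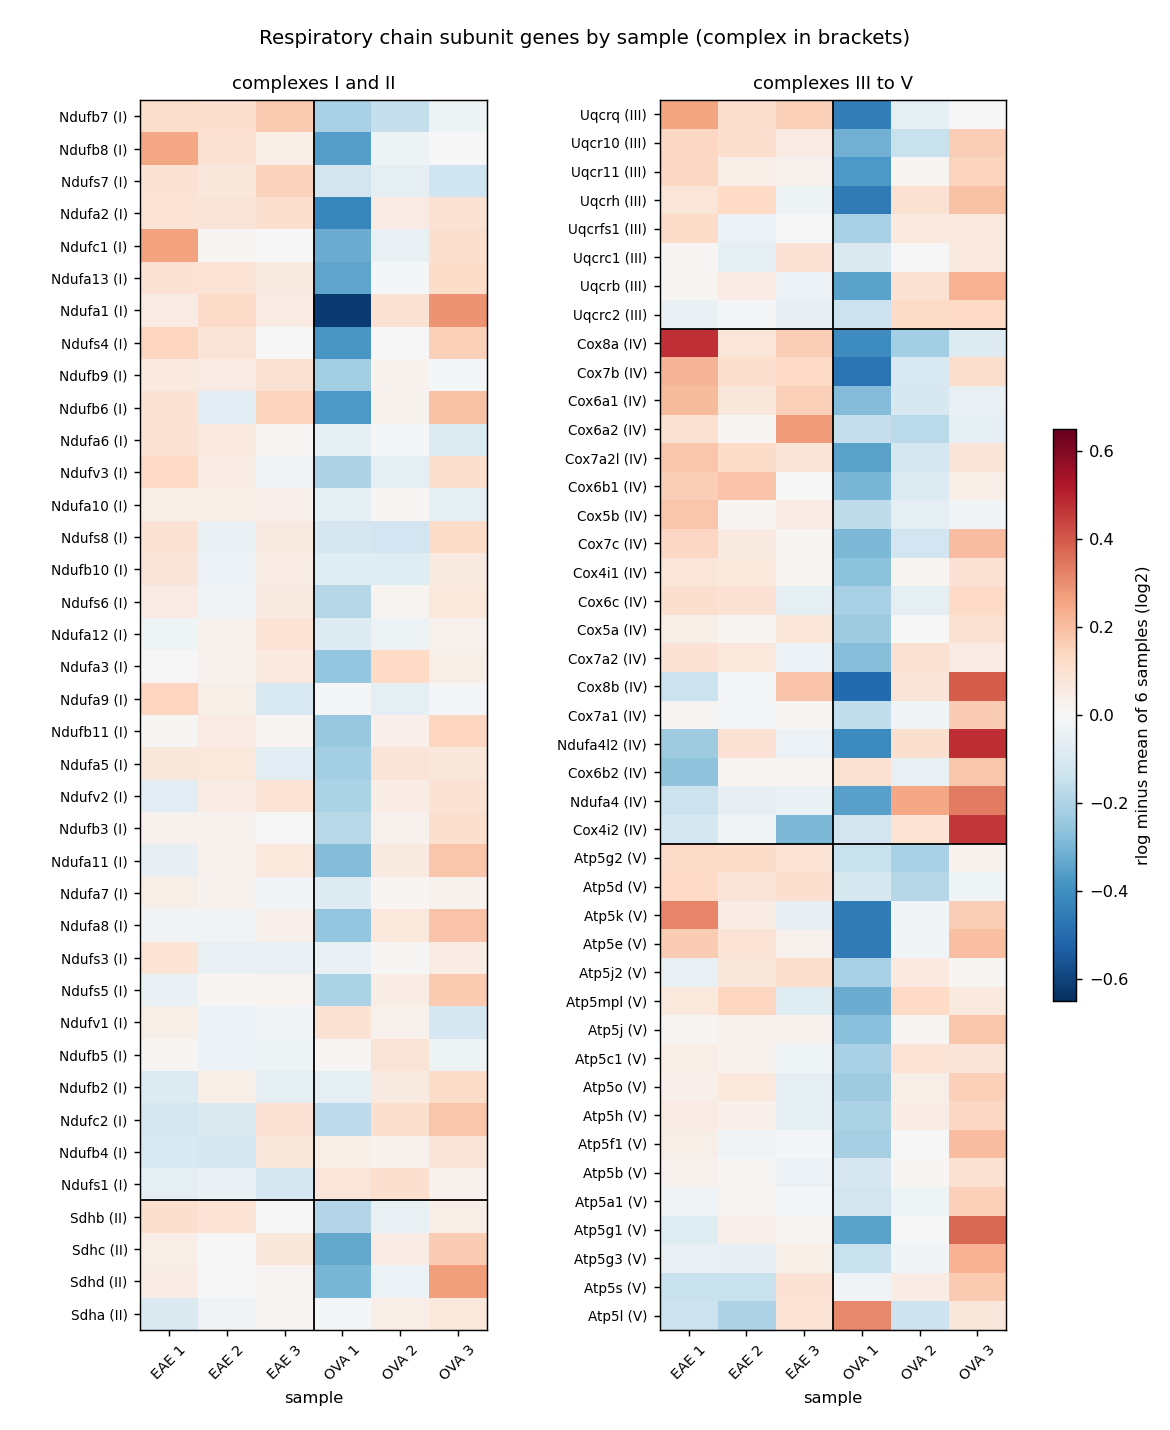
Deviation of the tested members' rlog values, 1 member left out, from each gene's mean over the 6 samples (colour, log2), with genes in rows by complex and samples in columns. The OVA 1 column is the lowest in 61 rows and the OVA 3 column is the highest in 43.

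Other genes with short transcripts shared the low values of OVA replicate 1. The 52 members with a principal transcript under 1 kb had a median difference of 0.084 and the 30 longer ones a median of 0.043. OVA replicate 1 was the lowest sample in 78.8% of these short members and also in 66.7% of the longer ones. Each length is that of the chosen principal transcript, the longest where annotation ranks tied. The longer group thus includes Atp5g1, at 4715 bases, and Ndufb2, at 4371 bases. Among all tested protein-coding genes the 894 with a transcript under 1 kb had a median difference of 0.087, 71.9% above 0, and 50.3% of them were lowest in OVA replicate 1, whereas the 14322 longer ones had a median of -0.004 and 24.0% were lowest there. Cytosolic ribosomal protein genes had a median difference of 0.25 over 77 tested genes, with 75 above 0, 0 called and 93.5% lowest in OVA replicate 1. Mitochondrial ribosomal protein genes had a median of 0.062 over 77 tested genes, with 56 above 0 and 0 called, and 57.1% were lowest in OVA replicate 1. The part of transcript length in the lean of the respiratory chain genes was not tested.

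**Figure D3:**
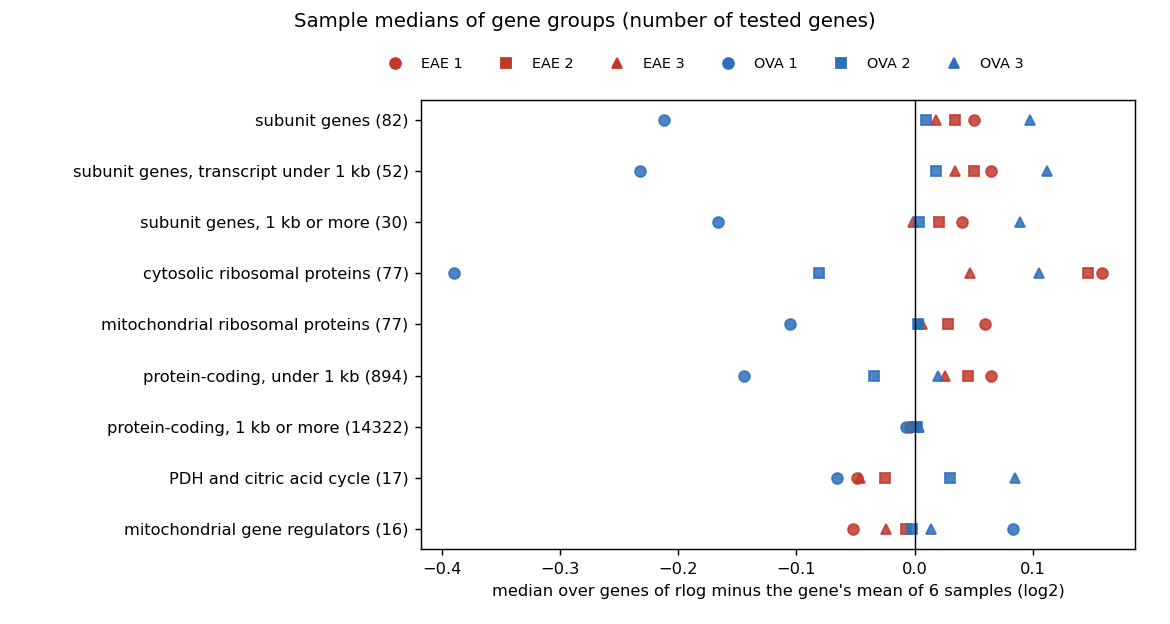
Median over the genes of a group of rlog minus the gene's mean of 6 samples (log2, horizontal axis), 1 symbol per sample, with the number of tested genes in brackets. OVA 1 lies at -0.212 for the 82 subunit genes, at -0.390 for the cytosolic ribosomal protein genes and at -0.144 for all short protein-coding transcripts.

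Values of EAE and OVA did not overlap in 14 members. EAE lay above OVA in 13 of them (15.9%, beside 12.1% of all tested genes) and below in 1, Ndufs1 (1.22%, beside 10.8%). The 13 are Ndufs7, Ndufa6, Ndufa10, Ndufb7, Ndufb8 and Ndufb9 of complex I, Uqcrq of complex III, Cox5b, Cox6a1, Cox6a2 and Cox8a of complex IV, and Atp5d and Atp5g2 of complex V. Those that the naming rule did not take are named because their values were seen. Complex II had 0 such genes.

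Complex I has 7 nuclear core subunits, which hold the flavin and the iron-sulphur clusters, and supernumerary subunits around them. The 35 members had a median difference of 0.058, with 26 above 0. Without OVA replicate 1 the median was -0.005. The 7 core genes had a median difference of 0.043 with 4 above 0, and the 28 supernumerary genes 0.061 with 22 above 0.

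Among the core genes, OVA replicate 1 was the lowest sample in 1 of 7, against 21 of 28 supernumerary genes. Ndufs7, which carries the iron-sulphur cluster nearest to ubiquinone, stood at 10.51, 10.49 and 10.56 in EAE and 10.30, 10.35 and 10.29 in OVA. All 3 EAE pools lay above all OVA samples, by 0.211 ± 0.065 (SE) on average (limma adjusted p = 0.163).

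Ndufs1, the large iron-sulphur subunit of the arm that oxidises NADH, ran the other way. Its values were 11.56, 11.57 and 11.50 in EAE and 11.69, 11.72 and 11.64 in OVA. Every EAE pool lay below every OVA sample, and the difference was -0.143 ± 0.065 (limma adjusted p = 0.335), with a range of -0.164 to -0.120 when each sample was left out in turn. The gene lies on chromosome 1 from 63143596 to 63176833 and has 19 exons in its principal transcript.

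Ndufb7, a supernumerary subunit on the outer face of the membrane arm, had the largest positive difference of complex I. It stood at 10.23, 10.23 and 10.29 in EAE and 9.91, 9.96 and 10.09 in OVA. The EAE pools lay within 0.1 of each other and above all 3 OVA samples. The difference was 0.266 ± 0.075, a 1.203-fold difference, with a 95% interval of 0.090 to 0.442 (limma adjusted p = 0.131). It came to 0.316 without OVA replicate 3, where it passed the test at an adjusted p of 0.0419, and lay at 0.227 to 0.277 with any other sample left out.

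Complex I also holds 2 of the 3 X-linked members, which are given beside the sex-linked transcripts because those separate the groups. Ndufa1, a small subunit of the membrane arm, stood at 9.54, 9.60 and 9.53 in EAE and 8.86, 9.58 and 9.77 in OVA. Its OVA samples spanned more than those of any other complex I gene, and the difference of 0.154 ± 0.214 became -0.119 without OVA replicate 1. Ndufb11, also of the membrane arm, stood at 10.77, 10.81 and 10.78 in EAE and 10.52, 10.79 and 10.90 in OVA. Its difference was 0.050 ± 0.103 and became -0.059 without OVA replicate 1. The third X-linked member, Cox7b, is described with complex IV, and the part of sex in any of the 3 was not tested.

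Complex II, succinate dehydrogenase, consists of 4 nuclear subunits and also serves the citric acid cycle. Its median difference was 0.060, with 3 of 4 above 0, and became -0.079 without OVA replicate 1. The catalytic flavoprotein Sdha had the highest level per kb of the 4, 11.34 on the log2 scale, and stood at 12.79, 12.86 and 12.89 in EAE and 12.86, 12.92 and 12.95 in OVA, with a difference of -0.065 ± 0.073. The iron-sulphur subunit Sdhb stood at 10.75, 10.73 and 10.64 against 10.45, 10.59 and 10.69, with a difference of 0.131 ± 0.082 (limma adjusted p = 0.476) that was 0.068 without OVA replicate 1. The groups overlapped for both genes of the catalytic pair.

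The membrane anchors Sdhc and Sdhd showed the wide OVA range. Sdhc stood at 11.10, 11.05 and 11.13 in EAE and at 10.72, 11.10 and 11.22 in OVA. Sdhd stood at 10.57, 10.53 and 10.54 in EAE and at 10.23, 10.49 and 10.80 in OVA. In both genes the EAE pools lay inside the OVA range, and differences of 0.077 ± 0.126 and 0.043 ± 0.135 became -0.069 and -0.095 without OVA replicate 1.

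Complex III had a median difference of 0.085, with 7 of 8 genes above 0, and of -0.024 without OVA replicate 1, which was the lowest sample in all 8. The core genes Uqcrc1, Uqcrc2 and Uqcrfs1 had a median of 0.027. All 5 supernumerary genes were above 0, with a median of 0.140. Uqcrc2, a core protein of the matrix side, stood at 11.82, 11.85 and 11.82 in EAE and at 11.73, 11.99 and 11.995 in OVA, with a difference of -0.074 ± 0.090 that was -0.163 without OVA replicate 1 and -0.029 without OVA replicate 3. Its EAE pools lay between OVA replicate 1 and the other OVA samples.

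Uqcrq, a small subunit of the membrane part of complex III, had the largest positive difference of all members after Cox8a. Its values were 9.89, 9.74 and 9.79 in EAE and 9.19, 9.58 and 9.64 in OVA. All 3 EAE pools lay above all OVA samples, with OVA replicate 1 well under the rest. The difference was 0.344 ± 0.127, with a 95% interval of 0.048 to 0.639 (limma adjusted p = 0.233), and was 0.204 without OVA replicate 1. The level of Uqcrh, the hinge protein at the cytochrome c side, is uncertain because near-identical processed copies could take part of its reads, and the same holds for Ndufa11, Ndufb4, Ndufs6, Cox6c, Atp5c1, Atp5k and Atp5l. Such sharing of reads was not measured, for these or for other members.

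Complex IV, cytochrome c oxidase, had the highest median difference of the 5 complexes, 0.101 with 14 of 18 tested genes above 0, and 0.006 without OVA replicate 1. The 12 widespread subunits, including Ndufa4, had a median of 0.151 with 11 above 0, and OVA replicate 1 was the lowest sample in all 12. The 6 tested tissue isoforms had a median of -0.053 with 3 above 0. The difference between these medians was not tested.

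Cox8a, the widespread isoform of a small subunit that lies across the membrane, had the largest difference and the smallest p of all members. Its values were 10.95, 10.56 and 10.64 in EAE and 10.07, 10.26 and 10.40 in OVA. All 3 EAE pools lay above all OVA samples, with EAE replicate 1 well above the rest. The difference was 0.475 ± 0.128, or 1.39-fold, with a 95% interval of 0.178 to 0.772 (limma adjusted p = 0.115). It was 0.357 without EAE replicate 1 and 0.555 without EAE replicate 2, and passed the test only without OVA replicate 3 (0.553, limma adjusted p = 0.0439) or with quality weights (0.448, limma adjusted p = 0.0069). Cox8a lies on chromosome 19 from 7215153 to 7217616.

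Cox6a1 is the widespread isoform of a regulatory subunit. It stood at 11.32, 11.19 and 11.27 in EAE and at 10.83, 11.02 and 11.07 in OVA, with no overlap. The difference was 0.288 ± 0.084 (95% interval 0.091 to 0.484, limma adjusted p = 0.142), and 0.218 to 0.336 with each sample left out in turn. Cox4i1, with the highest level per kb of complex IV (12.82), stood at 12.51, 12.50 and 12.44 in EAE and at 12.16, 12.44 and 12.53 in OVA. There the groups overlapped, and the difference of 0.106 ± 0.103 became -0.001 without OVA replicate 1.

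Cox7b, the X-linked subunit, stood at 10.48, 10.36 and 10.38 in EAE and at 9.77, 10.16 and 10.37 in OVA. The lowest EAE pool lay just under the highest OVA sample. The difference was 0.307 ± 0.143 (limma adjusted p = 0.347) and 0.145 without OVA replicate 1. Cox7a2l, grouped here with Cox7a2, stood at 10.30, 10.24 and 10.20 against 9.77, 10.01 and 10.21, a difference of 0.252 ± 0.113. Cox6b1, on the side facing cytochrome c, stood at 11.17, 11.20 and 11.01 against 10.71, 10.92 and 11.06, a difference of 0.229 ± 0.103. For these 2 genes the limma adjusted p was 0.328 and 0.332, and the groups overlapped by 1 sample pair each. Without OVA replicate 1 the difference was 0.140 for Cox7a2l and 0.137 for Cox6b1.

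Ndufa4, first assigned to complex I and later to complex IV, was the widespread subunit below 0. It stood at 10.64, 10.72 and 10.74 in EAE and at 10.43, 11.03 and 11.11 in OVA. Its EAE pools lay between OVA replicate 1 and the other OVA samples, and the difference was -0.157 ± 0.170, or -0.372 without OVA replicate 1 and -0.028 without OVA replicate 3. It was among the 3 genes called lower with quality weights (-0.312, limma adjusted p = 0.0209), beside Ndufs1 and Uqcrc2.

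Tissue isoforms were expressed below their widespread partners, by the least for Cox6b2 (8.96 per kb on the log2 scale, beside 11.71 for Cox6b1). Per kb of principal transcript, levels averaged over all samples were 217-fold higher for Cox6a1 than for Cox6a2, 62.5-fold for Cox4i1 over Cox4i2, 19.8-fold for Cox7a2 over Cox7a1, 16.5-fold for Cox8a over Cox8b and 13.6-fold for Ndufa4 over Ndufa4l2. Cox6a2, Cox7a1 and Cox8b are the heart and skeletal muscle isoforms, Cox4i2 is known from lung and from pericytes, and Ndufa4l2 is a hypoxia target also known from pericytes. Cox6b2 and Cox7b2 are testis isoforms.

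**Figure D4:**
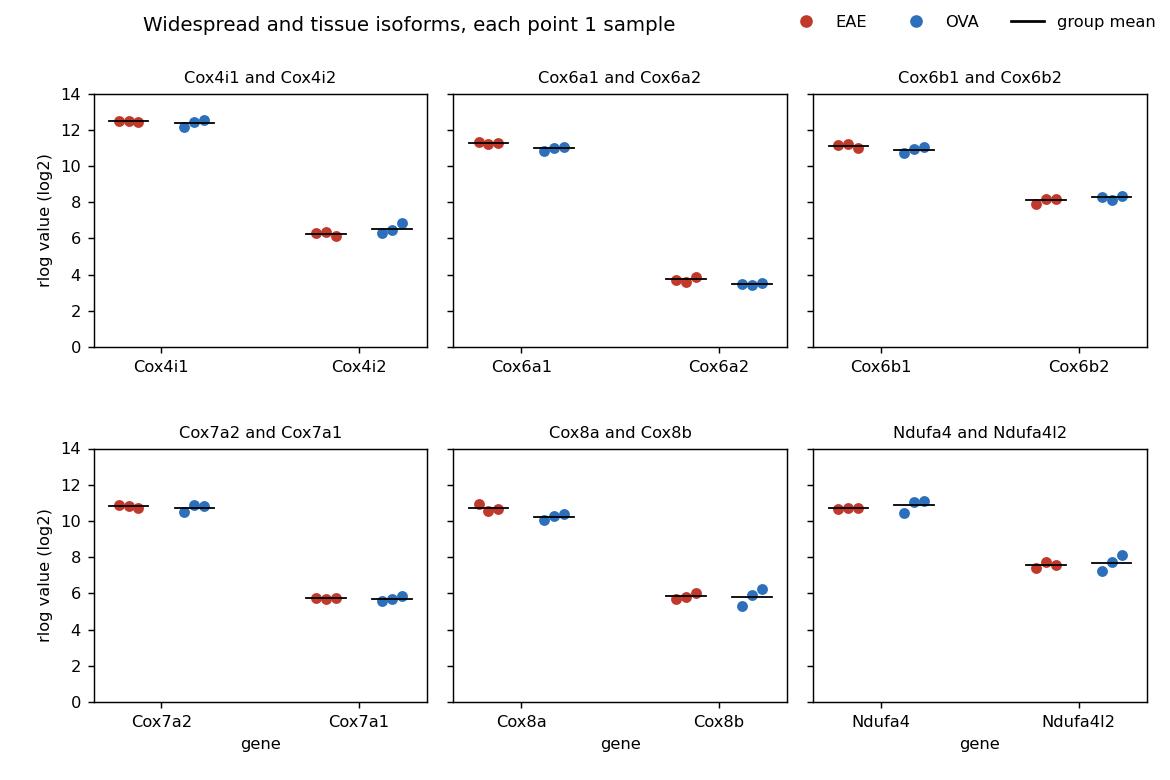
rlog values (log2, vertical axis) of widespread and tissue isoforms in 6 gene pairs, with 1 point per sample, EAE in red, OVA in blue and a bar at the group mean. Every tissue isoform lies below its widespread partner in all samples, and the group means within a gene differ by less than 0.5.

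For 5 pairs the difference of tissue isoform minus widespread isoform was taken in each sample. Cox6b2 and Cox6b1 were not among these pairs. Groups were compared by a two-sided exact permutation test, which cannot give a p under 0.1 with 3 samples against 3. Cox4i2 minus Cox4i1 was -6.22, -6.12 and -6.33 in EAE and -5.88, -5.95 and -5.67 in OVA. The groups did not overlap, and the shift was -0.391 (exact p = 0.1, adjusted over 5 pairs 0.5), with a range of -0.451 to -0.308 when each sample was left out. Cox4i2 itself stood at 6.29, 6.38 and 6.11 in EAE and at 6.28, 6.49 and 6.86 in OVA, the largest negative difference of all members at -0.285 ± 0.159 (limma adjusted p = 0.424). It was -0.128 without OVA replicate 3. All 9 markers of pericytes and smooth muscle were below 0 too, with a median of -0.374 and 0 called. They were highest in OVA replicate 3 in all 9, and their summed level was 14.59 to 15.01 in EAE and 14.74 to 15.60 in OVA. Their part in the Cox4i2 values was not tested.

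Cox8b minus Cox8a was -5.27, -4.75 and -4.63 in EAE and -4.75, -4.35 and -4.18 in OVA. The shift was -0.457 (exact p = 0.3, adjusted 0.667), and came to -0.264 without EAE replicate 1 and -0.619 without OVA replicate 1. Cox8b itself differed by 0.018 ± 0.219. Cox8b stood at 5.68, 5.81 and 6.01 in EAE and at 5.32, 5.91 and 6.22 in OVA, and its direction turned to -0.013 under quantile normalization and to -0.231 without OVA replicate 1. Cox6a2, at 3.71, 3.62 and 3.89 in EAE and 3.46, 3.44 and 3.55 in OVA, was close to the minimum level for a test. It differed by 0.256 ± 0.076 without overlap (limma adjusted p = 0.146), in parallel with Cox6a1, so that Cox6a2 minus Cox6a1 shifted by -0.032 (exact p = 0.7, adjusted 0.7). Of 9 skeletal muscle markers 3 reached the minimum, at summed levels of 5.42 to 5.50 in EAE and 5.37 to 5.47 in OVA, and Myh4 was listed at 0.

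Cox7a1 stood at 5.72, 5.70 and 5.72 in EAE and at 5.55, 5.69 and 5.88 in OVA, with a difference of 0.009 ± 0.102 that turned to -0.035 under quantile normalization and -0.014 under median centring. Its partner Cox7a2 stood at 10.86, 10.83 and 10.73 against 10.49, 10.87 and 10.82, a difference of 0.082 ± 0.110. The pair shifted by -0.073 (exact p = 0.4, adjusted 0.667). Ndufa4l2 stood at 7.40, 7.72 and 7.59 in EAE and at 7.22, 7.74 and 8.11 in OVA, a difference of -0.116 ± 0.219 that became 0.095 without OVA replicate 3. Ndufa4l2 minus Ndufa4 shifted by 0.040 (exact p = 0.7, adjusted 0.7). The testis isoform Cox6b2 had the highest level per kb of the tissue isoforms, 8.96, beside 11.71 for its partner Cox6b1, and stood at 7.93, 8.21 and 8.20 in EAE and 8.29, 8.14 and 8.37 in OVA, a difference of -0.153 ± 0.117. Cox7b2 was at 0.57, 0.60 and 0.57 against 0.60, 0.59 and 0.64 and was not tested.

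Complex V had the lowest median difference of the 5 complexes, 0.027 with 11 of 17 genes above 0, and -0.068 without OVA replicate 1. Within it, the F1 head that makes ATP had a median of 0.027, the peripheral stalk 0.022, the c ring that turns in the membrane -0.016, and the small membrane subunits 0.089. Atp5b, the catalytic beta subunit, had the highest level per kb of all members, 12.99, and stood at 13.95, 13.93 and 13.89 in EAE and 13.81, 13.94 and 14.02 in OVA. Its difference was -0.002 ± 0.092, with a 95% interval of -0.217 to 0.213.

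Atp5d, the delta subunit of the central stalk, had the smallest p of complex V. It stood at 11.22, 11.17 and 11.19 in EAE and at 10.98, 10.90 and 11.06 in OVA. All EAE pools lay above all OVA samples, with a difference of 0.214 ± 0.070 (95% interval 0.052 to 0.376, limma adjusted p = 0.182). Atp5l, subunit g of the membrane part, had the largest negative difference, -0.166 ± 0.141, at 7.80, 7.73 and 8.02 in EAE and 8.24, 7.80 and 8.01 in OVA. Unlike most members it was highest in OVA replicate 1, without which the difference was -0.052, and its level is uncertain for the reason given for Uqcrh.

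The c ring is built from identical c subunits that 3 genes encode with different import peptides. Atp5g3 had the highest level per kb of them, 11.81, and stood at 11.28, 11.27 and 11.37 in EAE and 11.18, 11.31 and 11.55 in OVA, a difference of -0.042 ± 0.102. Atp5g1 stood at 9.90, 10.01 and 9.995 against 9.63, 9.98 and 10.35, a difference of -0.016 ± 0.166. In both the EAE pools lay inside the OVA range. Atp5g2, at 8.52, 8.52 and 8.49 in EAE and 8.25, 8.19 and 8.42 in OVA, did not overlap and differed by 0.223 ± 0.095 (limma adjusted p = 0.304). Whether the 3 genes differ in their response was not tested.

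**Figure D5:**
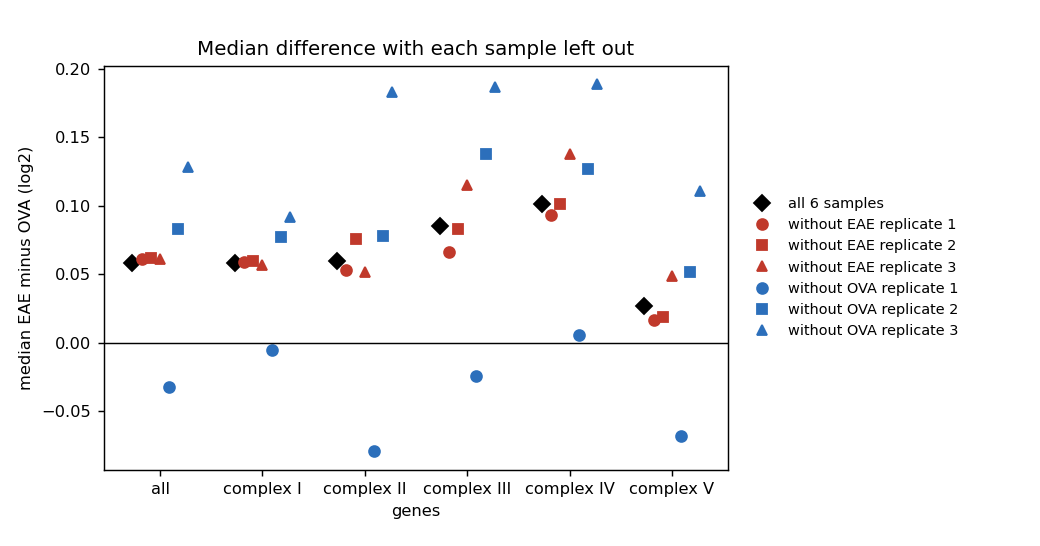
Median EAE minus OVA difference (log2) over all 82 tested members and over each complex, with all 6 samples (black) and with each sample left out in turn. Without OVA replicate 1 the median of all members is -0.032, and that of complex IV is 0.006 while the other 4 complexes lie below 0.

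Genes that assemble or serve the complexes were read from lists of the wider pathway. Of 15 tested complex I assembly factors 0 were called, with a median difference of -0.044, and the smallest p belonged to Ndufaf4 (-0.224 ± 0.079, limma adjusted p = 0.217). Among the 21 complex IV assembly factors 0 were called, with a median of 0.008, and Cox20, which helps to insert a mitochondrially encoded subunit, had the smallest p (-0.320 ± 0.096, limma adjusted p = 0.154). The 4, 6 and 5 assembly factors of complexes II, III and V had medians of 0.017, -0.081 and 0.018, with 0 called. Cytochrome c and 3 partners outside the symbol rule, Cyc1, Ndufab1 and Atpif1, had a median of 0.035 and 0 called. Ndufb1-ps and Usmg5, subunit genes whose symbols the rule misses and which were looked up after values were seen, differed by 0.165 ± 0.137 and 0.067 ± 0.101.

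Coenzyme Q synthesis, which makes the ubiquinone between complexes, had 0 of 11 genes called and a median of -0.054. Its smallest p was that of Coq8b (0.244 ± 0.080, limma adjusted p = 0.185). The enzymes of pyruvate dehydrogenase and the citric acid cycle, which supply NADH and succinate, had 0 of 17 called and a median of -0.062, with 3 above 0. Citrate synthase, Cs, differed by -0.132 ± 0.068 (limma adjusted p = 0.39). Carriers of ADP and phosphate and the outer membrane channels had 0 of 8 called and a median of 0.008. In that list the uncoupling protein homologue Ucp2 had the smallest p (0.469 ± 0.158, limma adjusted p = 0.197).

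The regulators of mitochondrial genes had 0 of 16 genes called higher and 1 lower, with a median of -0.079 and 4 above 0. The gene called was Ppargc1a, the coactivator PGC-1 alpha of mitochondrial biogenesis. It stood at 9.01, 9.02 and 9.09 in EAE and at 9.62, 9.37 and 9.54 in OVA, without overlap. The gene fell by 0.468 ± 0.090 in log2 units, with a limma adjusted p of 0.0439. With 1 sample left out, the limma adjusted p stayed under 0.05 only without OVA replicate 3 and lay at 0.0809 to 0.191 without any other sample, and it was 0.0617 with no filter on low values. Of the 9 astrocyte markers 8 were below 0 as well, and the summed level of the list was 16.02 to 16.36 in EAE and 16.80 to 17.15 in OVA. The remaining one, Gfap, a filament protein of reactive astrocytes, went the other way and rose by 1.351 ± 0.109 (limma adjusted p = 0.00446). Other marker lists were below 0 in every gene, among them microglia (7 of 7), endothelium (9 of 9) and pericytes and smooth muscle (9 of 9). Those of mature oligodendrocytes, monocytes and macrophages, T cells and ependymal cells were above 0 in every gene. The part of astrocyte or other cell type transcripts in the Ppargc1a values was not tested. Ppargc1b and Pprc1, coactivators of the same family as Ppargc1a, are named because their values were seen. Both went the other way, by 0.259 ± 0.095 without overlap for Ppargc1b (limma adjusted p = 0.23) and by 0.154 ± 0.089 for Pprc1 (limma adjusted p = 0.444). Nrf1, Gabpa and Yy1, whose binding cores were searched in the promoters, differed by -0.127 ± 0.088, -0.195 ± 0.074 and -0.082 ± 0.070, with limma adjusted p of 0.519, 0.247 and 0.604.

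Of 12 hypoxia targets, 1 was called higher and 0 lower, with a median of 0.017. Egln3, an oxygen-sensing prolyl hydroxylase, stood at 9.56, 8.78 and 8.49 in EAE and at 7.57, 7.66 and 7.70 in OVA. It rose by 1.298 ± 0.247 (limma adjusted p = 0.0426), but the limma adjusted p was 0.133 when EAE replicate 2 was left out, 0.115 when OVA replicate 1 was, 0.150 when OVA replicate 2 was, and 0.0502 with no intensity trend. Monocyte and macrophage markers were higher in EAE too, at a summed level of 15.02 to 15.50 in EAE and 12.74 to 14.23 in OVA. Within OVA their summed level was 12.74, 12.82 and 14.23 in replicates 1 to 3, where Egln3 stayed at 7.57 to 7.70. The largest member of the sum in OVA replicate 3 was Lyz2, at 13.943. Single markers differed in pattern. Arg1 stood at 12.436, 10.922 and 10.004 in EAE and at 6.136, 6.227 and 6.407 in OVA. Like Egln3, Arg1, F10 and Cd14 fell in order from EAE replicate 1 to 3. Ccr2, Ly6c2, Lyz2, Ms4a7 and Gpnmb did not. The part of monocyte and macrophage transcripts in the Egln3 values was not tested. Of the other 11 targets, 2 had groups that did not overlap, in opposite directions. They are named because their values were seen: Adm, the vasodilator peptide adrenomedullin, differed by -0.391 ± 0.116 (limma adjusted p = 0.149), and Bnip3, a mitophagy receptor, by 0.228 ± 0.091 (limma adjusted p = 0.273).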

How the data were processed

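RNA of O4-captured brain cells was sequenced in 3 EAE and 3 OVA samples, with groups taken from the treatment label. The TruSeq Stranded mRNA kit, which keeps strand, was used per the labels' protocols. Build GRCm38 and the tools DESeq2 1.24.0, Subread 1.6.1, STAR 2.6.1c, cutadapt 1.18 and bcl2fastq 2.17 are listed in the submitters' processing notes, without their order or role. The deposited values are log2 (rlog) values made by the authors, and whether that step used the groups and which annotation was counted are not given in the sources used here. The rlog understates differences of weakly expressed genes. The values carry no counts, so depth is unknown, and the number of samples limits the precision.

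Identifiers were matched without version to GENCODE M21 (55117 of 55298), which gave symbols, 1-based GRCm38 positions and principal transcript lengths. The principal transcript had the best APPRIS annotation rank, then the best support level, and was the longest where these tied. The 25244 genes at 0 in every sample and those with a mean under 3 were left out, and 18161 were tested with limma 3.58.1 (R 4.3.3) with an intensity trend, two-sided, adjusted over all tested genes by Benjamini-Hochberg at 0.05. Errors after differences are standard errors (SE). Single values were compared with exact permutation tests in SciPy 1.17.1. The fit was checked on simulated data with 50 genes changed at each size. It recovered 6% of log2 changes of 0.3, 54% of those of 0.5 and 100% of those of 1 and of 2, with 6 false calls. Small changes were thus mostly missed. The simulated noise was independent between samples and equally wide in both groups. In the real data the median range over all tested genes was 0.146 in EAE and 0.263 in OVA. Recovery and false calls in the real fit can therefore differ from these. A level per kb is the mean rlog minus the log2 of transcript length in kb, and a summed level of a list is the log2 of the sum of its members' values on the linear scale. Alternatives were the filter, 2 other scalings, no trend, 2 kinds of sample weights and leaving out each sample.

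The members and lists were chosen with earlier results of these data known. Genes named are, per complex, those with the largest difference in each direction, the smallest p and the highest level, all isoform pairs, the Sdh genes and X-linked members, and per pathway list the called genes or else the one with the smallest p, with others named for their role or as described in the text. The values of 1 further member are not reported here, though the group counts and medians include it.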

Additional observations from a re-analysis of the deposited data

How the results depend on the processing

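Over all genes, quality weights gave 2858 higher and 2233 lower calls in place of 312 and 121, with a weight estimate that stopped before it converged, and leaving out 1 sample gave 24 to 850 higher and 1 to 346 lower calls. Respiratory chain subunit genes had 13 higher and 3 lower calls with quality weights, 2 higher without OVA replicate 3 (0 to 2 higher and 0 to 0 lower over the samples left out) and 0 under the other settings. Their median ran from -0.032 without OVA replicate 1 to 0.128 without OVA replicate 3. By complex the medians ran from -0.005 to 0.092 (I), -0.079 to 0.183 (II), -0.024 to 0.187 (III), 0.006 to 0.189 (IV) and -0.068 to 0.111 (V) over the samples left out, and quality weights gave -0.005 in complex III and -0.003 in complex V. Differences of isoform pairs ran from -0.100 to 0.027 for Cox6a2 minus Cox6a1 and from -0.025 to 0.123 for Ndufa4l2 minus Ndufa4, the pairs that turned. Single genes that turned with a sample left out were Atp5b (-0.058 to 0.048), Atp5g1 (-0.194 to 0.166), Atp5g3 (-0.124 to 0.061), Cox4i1 (-0.001 to 0.180), Cox7a1 (-0.068 to 0.094), Cox7a2 (-0.036 to 0.153), Cox8b (-0.231 to 0.220), Ndufa1 (-0.119 to 0.339), Ndufa4l2 (-0.351 to 0.095), Ndufb11 (-0.059 to 0.131), Sdhc (-0.069 to 0.179) and Sdhd (-0.095 to 0.189). Other settings turned Atp5l (0.015 with quality weights), Cox7a2 (-0.040 with quality weights), Sdhc (-0.010 with quality weights), Cox7a1 (-0.035 with quantile normalization, -0.014 with median centring) and Cox8b (-0.013 and -0.005 under these, -0.078 with quality weights, -0.006 with weights by number of mice). The cause of these changes was not tested beyond the samples named.

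No paired analysis was possible because the replicate numbers were given in accession order and link no EAE sample to an OVA sample. With 1 sample left out, a group of 2 stands against one of 3, so lost calls say little. An exact test of 3 against 3 cannot go under 0.1.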
